A study of Mus musculus with 6 samples.

Results

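NAD is the hydride carrier of energy metabolism and is also a substrate that several enzyme families use up. The 10 genes described here are Nmrk1, Nmrk2, Nampt, Nmnat1, Nmnat3, Naprt, Nadsyn1, Nnmt, Cd38 and Sirt1, which make, recycle or consume it. They were chosen by name with the results of the C26 against control comparison known, so their own values are given below as a description, without a test. Of the 10, 9 have a named probe set among the 21212 on the array, and Cd38, a cell surface enzyme that hydrolyses NAD, is not analysed here. Expression was measured in gastrocnemius and plantaris muscles of male CDF1 mice that were 8 weeks old when obtained. C26 mice carried subcutaneous tumors grown from C26 cells, a mouse colon carcinoma line used as a model of cancer cachexia, which had been injected in PBS/matrigel into both flanks, and control mice received PBS/matrigel alone. Muscles were taken 25 days after inoculation. RNA from 2 to 3 muscles was combined per array, which gave 3 C26 pools (replicates 1, 3 and 4) from 4 mice and 3 control pools (replicates 1, 2 and 3) from 3 mice. The sources used here do not say which muscles went into which pool, so pools of a group may share a mouse, and an adjusted p measures only the spread between pools.

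Mammalian muscle makes most of its NAD by salvage. Nampt joins nicotinamide to a phosphoribosyl group, the nicotinamide riboside kinases Nmrk1 and Nmrk2 phosphorylate the nucleoside, and both routes give nicotinamide mononucleotide, which the Nmnat enzymes turn into NAD. Naprt and Nadsyn1 serve the route from nicotinic acid, Nnmt methylates nicotinamide and so withdraws it from salvage, and sirtuins, PARP enzymes and NAD glycohydrolases split NAD and release nicotinamide. Nmrk2 is known as the kinase form of striated muscle, and Nmrk1 is the more widely expressed one.

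All values are log2 intensities, so a difference of 1 is a 2-fold change, and differences are C26 minus control. Group values are means ± SD of 3 pools each, and the SE of a difference comes from limma, a linear model fitted to every probe set. The values of different probe sets are not set against each other. A gene counts as called where its adjusted p from limma (Benjamini-Hochberg over all 21212 probe sets) did not exceed 0.05 and the groups differed by 1.5-fold or more. Array medians lay between 4.93 and 5.02. Correlations between arrays were 0.994 to 0.996 within a group and 0.976 to 0.981 between groups. The 95th percentile of 1250 probe sets of olfactory and vomeronasal receptors, 3.83, served as background, which 14852 probe sets exceeded in C26 or control muscle. The call rule took 5.94% of all probe sets as higher and 4.95% as lower in C26 muscle, or 1261 and 1049 of them. Centring each array on its median changed these counts to 1534 and 839, so that 64.6% instead of 54.6% of the calls were higher.

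Among the 9 measured genes Sirt1, on the higher side, and Nmrk2, on the lower side, lay past these limits, that is 1 in each direction. Since the genes were picked with this comparison known, the counts place them among all probe sets and are no test of them. With the adjusted p alone, which took 14.3% of all probe sets as higher and 15.8% as lower, Sirt1, Nampt and Naprt were higher and Nmrk2 and Nmnat1 were lower. The 3 C26 pools did not overlap with the 3 control pools for the same 5 genes, 3 of them higher and 2 lower, and 19.3% and 24.6% of all probe sets were apart in this way. The median difference of the 9 genes was -0.10, beside -0.05 for all probe sets. The salvage kinase Nmrk2 differed by far more than the other 8 genes, whose differences lay between -0.41 and 0.81. Of the 9 genes 8 lay above background in at least 1 group, and Nmrk1 did not.

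**Figure D1:**
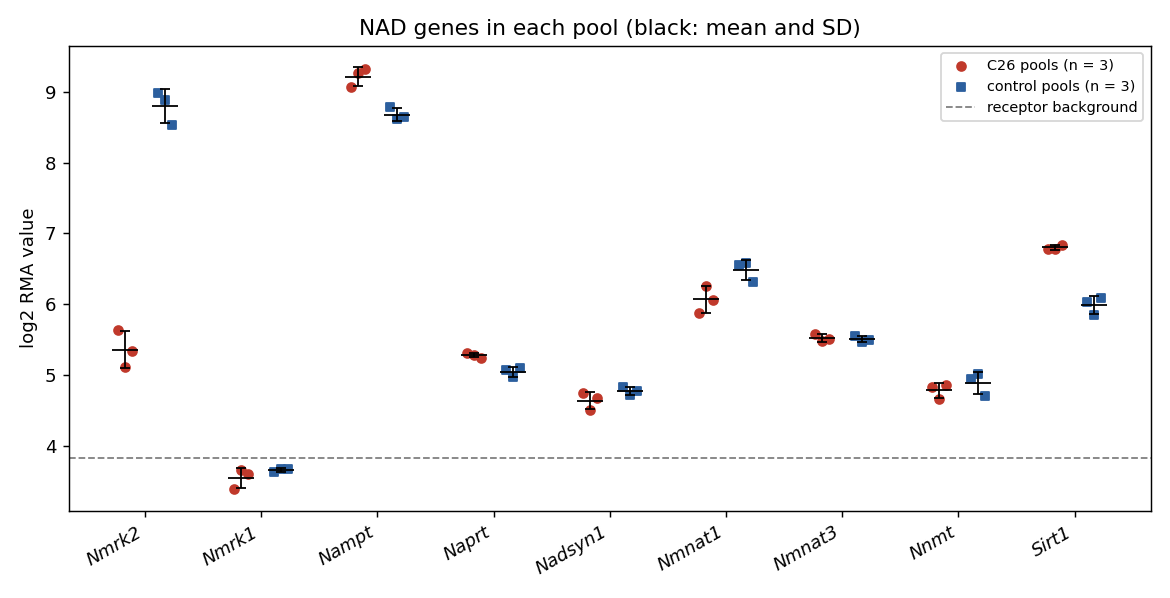
Log2 intensity of the 9 measured NAD genes (y axis), with 1 point per pool (red circles C26, left; blue squares control, right), group mean and SD in black, and the receptor background dashed. Nmrk2 lies between 5.11 and 5.64 in C26 pools and between 8.53 and 8.99 in control pools, whereas Nmrk1, Nmnat3, Nadsyn1 and Nnmt overlap between the groups.

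Nmrk2, the muscle nicotinamide riboside kinase, had values of 5.64, 5.11 and 5.33 in C26 replicates 1, 3 and 4, against 8.99, 8.89 and 8.53 in control replicates 1, 2 and 3. All 3 C26 pools lay at least 2.89 below the lowest control pool. The means were 5.36 ± 0.27 in C26 muscle and 8.80 ± 0.24 in control muscle, a difference of -3.44 (SE 0.16), so that the C26 level was 10.9-fold lower. This was the 6th largest fall of all 21212 probe sets. Both group means stayed above background. The difference lay between -3.58 and -3.32 under the alternatives that were tried.

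Nmrk1, the other riboside kinase, showed no such gap. It had 3.39, 3.66 and 3.60 in the C26 pools, against 3.63, 3.68 and 3.67 in the control pools. The groups overlapped, both means (3.55 ± 0.14 in C26, 3.66 ± 0.03 in control) lay under the background, and the difference was -0.11 (SE 0.09). At these signals a change in Nmrk1 was not detectable, and whether the gene was transcribed cannot be read from this probe set.

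The promoters of Nmrk2 and Sirt1 are shown since these genes had the largest differences in either direction. Each window runs from 250 bases before to 50 bases after the transcription start on the gene's own strand (RefSeq, build GRCm38.p6), and 8 of the 10 genes matched an entry, Naprt and Nnmt being the ones that did not. Capitals mark matches to the motifs searched on both strands, which were the E-box CANNTG, the STAT site TTCNNNGAA, the C/EBP site TTGCNNAA and the forkhead site GTAAACA. Of the 32851 RefSeq promoters of this length, 72.3% hold an E-box, 8.3% a STAT site, 10.8% a C/EBP site and 3.65% a forkhead site.
Nmrk2, chr10:81201988-81202287, minus strand: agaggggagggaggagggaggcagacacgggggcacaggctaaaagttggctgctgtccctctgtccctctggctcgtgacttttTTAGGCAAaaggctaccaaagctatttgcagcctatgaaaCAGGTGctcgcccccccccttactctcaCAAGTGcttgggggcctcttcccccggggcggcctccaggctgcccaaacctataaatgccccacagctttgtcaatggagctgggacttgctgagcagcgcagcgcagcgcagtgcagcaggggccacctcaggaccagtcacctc
Sirt1, chr10:63338986-63339285, minus strand: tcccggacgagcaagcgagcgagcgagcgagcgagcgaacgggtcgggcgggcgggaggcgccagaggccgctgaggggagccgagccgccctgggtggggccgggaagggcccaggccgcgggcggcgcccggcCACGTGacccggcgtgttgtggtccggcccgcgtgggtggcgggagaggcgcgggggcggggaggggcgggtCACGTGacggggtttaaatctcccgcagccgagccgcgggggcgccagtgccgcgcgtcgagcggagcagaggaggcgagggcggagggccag
In Nmrk2 the first capitals are a C/EBP match on the opposite strand that begins at position -165 from the start site, followed by E-boxes with the bases CAGGTG at -125 and CAAGTG at -97. In Sirt1 both matches are E-boxes of the form CACGTG, at -115 and -43. No match overlapped another. The window of Nmrk2 has a GC content of 60.7% and that of Sirt1 79%, beside a median of 52.7% over all promoters. The window of Nmrk1 holds none of the motifs, and Nampt has 1 E-box at -105. No STAT or forkhead match lies in the windows of the 8 genes. These matches describe the letters of the windows only, and factor binding was not measured here.

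Named probe sets were ranked by how closely their values over the 6 pools, each centred on its own mean, followed those of Nmrk2. The measure was the root mean square distance on the log2 scale. Among 18781 other named genes the nearest were Lrrc38 at 0.17, Plcd4 at 0.19, Ky at 0.22, Chad at 0.25 and Scd1 at 0.27, while the median gene lay at 1.71. Scd1 and the sixth gene lay at the same distance to 2 decimals. Lrrc38 encodes an accessory subunit of potassium channels, Plcd4 a phospholipase C, Ky a protein of the muscle sarcomere, Chad a cartilage matrix protein and Scd1 a fatty acid desaturase. The measure picks genes of the same size of difference, and these 5 had differences of -3.37, -3.62, -3.41, -3.79 and -2.97 in that order, with ranks of 8, 5, 7, 3 and 10 among all falls. None of the 5 overlapped between groups.

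**Figure D2:**
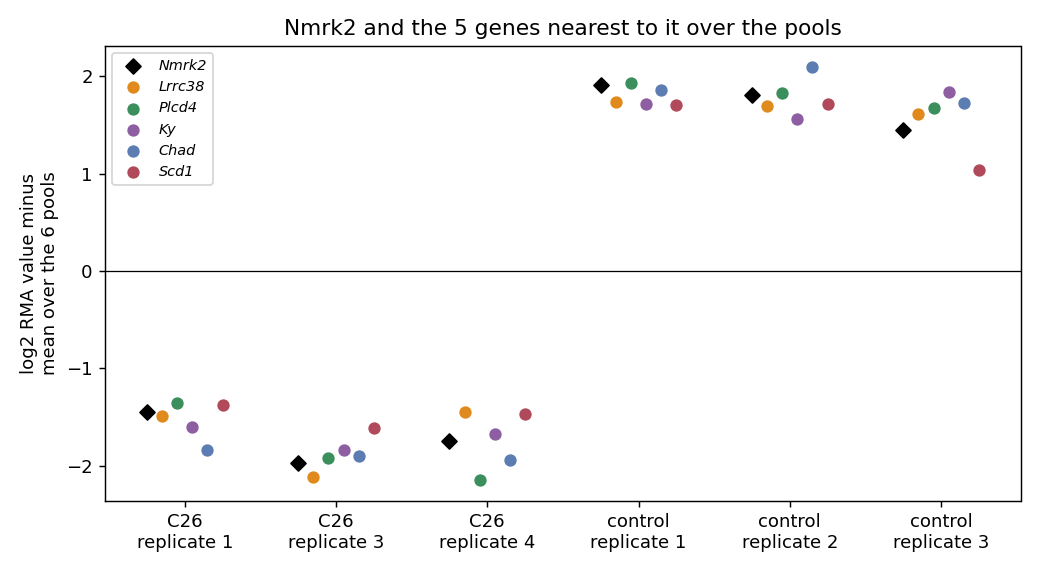
Log2 intensity minus each gene's own mean over the 6 pools (y axis) in each pool (x axis, C26 pools left), for Nmrk2 (black) and the 5 named genes nearest to it. The points of each pool lie close, with root mean square distances from Nmrk2 of 0.17 to 0.27.

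Nampt, the rate-limiting enzyme of salvage from nicotinamide, was higher in C26 muscle. Its values were 9.06, 9.26 and 9.32 in the C26 pools, against 8.78, 8.61 and 8.64 in the control pools. The groups were apart by 0.28. The means of 9.21 ± 0.13 in C26 and 8.68 ± 0.09 in control muscle gave a difference of 0.54 (SE 0.09), which is 1.45-fold and lies just under the fold minimum. Nampt passed that minimum when arrays were centred on their medians (0.60), without C26 replicate 1 (0.61) and without control replicate 1 (0.59). Other alternatives moved it further below, to 0.43 after quantile normalization, 0.45 with the replicate block and 0.48 without C26 replicate 4.

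Nmnat1, the nuclear enzyme that completes NAD, was lower in the C26 pools, by less than the fold minimum. It had 5.88, 6.26 and 6.07 in C26 pools, against 6.55, 6.58 and 6.32 in control pools. The gap between the highest C26 pool and the lowest control pool was 0.06, the narrowest among the 5 genes without overlap. The means were 6.07 ± 0.19 in C26 and 6.48 ± 0.14 in control muscle, with a difference of -0.41 (SE 0.12). Nmnat3, the mitochondrial form, had 5.59, 5.48 and 5.51 in C26 pools and 5.55, 5.47 and 5.50 in control pools. These overlapped throughout, and its difference of 0.02 (SE 0.07) changed sign when C26 replicate 1 or control replicate 2 was left out.

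Of the genes for the nicotinic acid route, Naprt, which adds the phosphoribosyl group to nicotinic acid, had 5.31, 5.29 and 5.25 in C26 pools, against 5.08, 4.97 and 5.10 in control pools. The groups did not overlap, and the difference of 0.23 (SE 0.07) amounted to 1.18-fold. Nadsyn1, which converts the resulting acid dinucleotide to NAD, had 4.75, 4.51 and 4.67 in C26 pools and 4.83, 4.72 and 4.78 in control pools, with overlap and a difference of -0.13 (SE 0.09). Nnmt, the methyltransferase that removes nicotinamide, also overlapped, with 4.83, 4.66 and 4.86 in C26 pools and 4.94, 5.01 and 4.71 in control pools and a difference of -0.10 (SE 0.10).

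Sirt1, a protein deacetylase of the nucleus that uses NAD as a co-substrate, was the gene of the list with the largest positive difference. It had 6.79, 6.79 and 6.84 in C26 pools, against 6.03, 5.85 and 6.09 in control pools. The C26 pools lay close together and at least 0.70 above every control pool. The means of 6.80 ± 0.03 in C26 and 5.99 ± 0.13 in control muscle gave a difference of 0.81 (SE 0.09), or 1.76-fold. In rank Sirt1 stood 691st among all rises. The difference ranged from 0.72 to 0.88 over the alternatives.

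The rest of the pathway was taken as 10 lists of 71 other genes, of which 69 were measured. Of these 8 rose, 6 fell and 55 were not called, while of all probe sets 5.94% rose and 4.95% fell. With the adjusted p alone 12 were higher and 22 lower, beside 14.3% and 15.8% of all probe sets. Their median difference was -0.14, beside -0.05 for all probe sets. A gene of these lists is said to have risen or fallen only where it passed the call rule, and adjusted p-values are from limma. Genes named below that did not pass were picked after their values were seen.

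**Figure D3:**
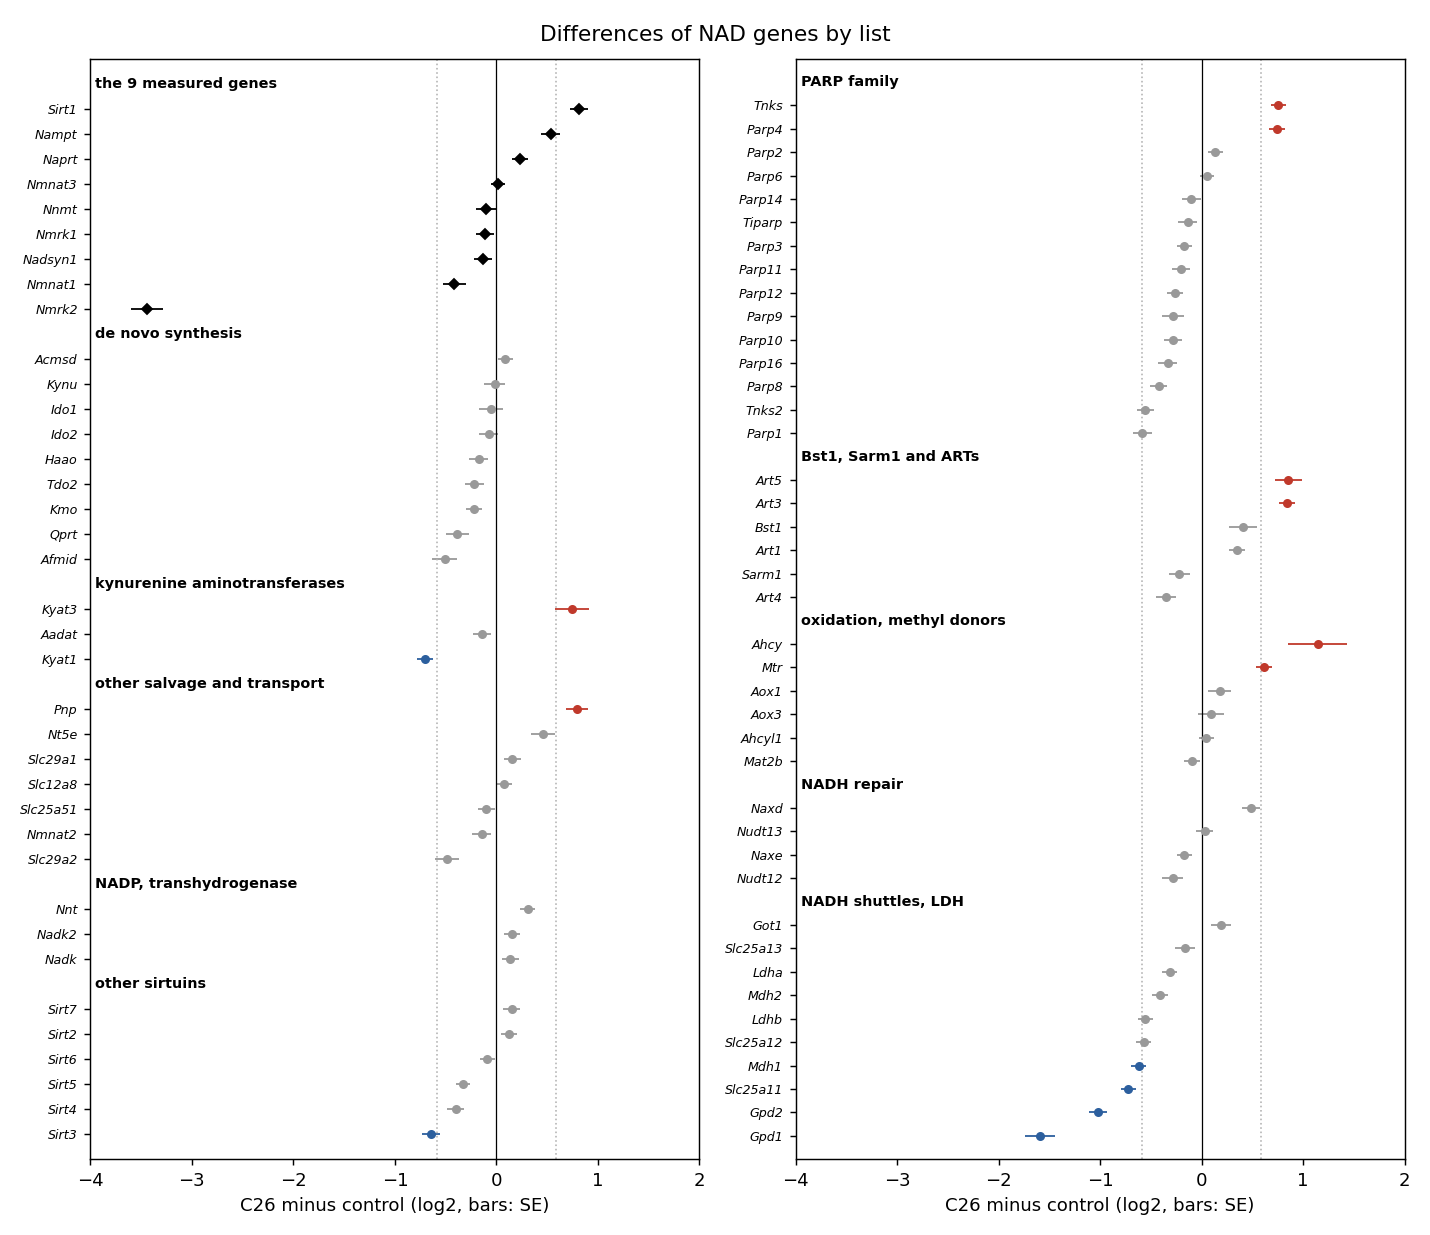
Difference between C26 and control muscle (x axis, log2, C26 minus control) for each measured NAD gene, grouped by list, with SE as bars, dotted lines at 1.5-fold, black for the 9 genes and red or blue for other genes called higher or lower. Nmrk2 at -3.44 lies apart from all others, and the shuttle genes sit mostly left of 0 with a median of -0.56.

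The de novo route from tryptophan had 9 measured genes, of which 3 lay above background in at least 1 group. limma called 0 of them in either direction, and so did the methods' t-test. At an unadjusted p under 0.05, which 17.8% of all probe sets passed as higher and 22.0% as lower, 0 were higher and 4 lower. The formamidase gene Afmid had a difference of -0.51 (SE 0.13, adjusted p = 0.0149) and passed the fold minimum without C26 replicate 4 or without control replicate 3. Qprt, which makes the first nucleotide of this route, had -0.38 (SE 0.11, adjusted p = 0.0286). The median of the list was -0.17.

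Of 3 measured kynurenine aminotransferases, which divert the pathway to kynurenic acid, Kyat3 rose and Kyat1 fell (5.94% and 4.95% of all probe sets). Kyat3 had 5.62, 6.16 and 6.18 in C26 pools, against 5.02, 5.30 and 5.40 in control pools, a difference of 0.75 (SE 0.16, adjusted p = 0.00886). Kyat1 had 6.67, 6.47 and 6.63 in C26 pools, against 7.26, 7.31 and 7.31 in control pools, a difference of -0.70 (SE 0.08, adjusted p = 0.000296). Neither overlapped between groups. The rise of Kyat3 did not pass the methods' t-test after adjustment.

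Among 7 genes of nucleoside handling and transport, Pnp rose and the others were not called, while 5.94% of all probe sets rose. Pnp, the purine nucleoside phosphorylase that can also split nicotinamide riboside, the substrate of Nmrk2, had 6.54, 6.58 and 6.80 in C26 pools, against 5.68, 5.82 and 6.03 in control pools. All C26 pools lay above the control pools, with a difference of 0.80 (SE 0.11, adjusted p = 0.000877). Nt5e, an ectonucleotidase that yields nucleosides, had 0.46 (SE 0.12, adjusted p = 0.0176), and the nucleoside transporter gene Slc29a2 had -0.49 (SE 0.12, adjusted p = 0.0139). The median of the list was 0.07. Of 3 genes for NADP synthesis and the transhydrogenase, limma and the methods' t-test each called 0. At an unadjusted p under 0.05, 1 was higher and 0 lower, beside 17.8% and 22.0% of all probe sets. The higher one was the mitochondrial transhydrogenase gene Nnt, at 0.31 (SE 0.07, adjusted p = 0.0138). Nadk and Nadk2 had 0.14 and 0.15. All C26 pools lay above the control pools for these 3 genes, as for 19.3% of all probe sets.

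Of the 6 other sirtuins measured, Sirt3 fell and 5 were not called, beside 4.95% of all probe sets that fell. The list's median was -0.21. Whether the differences of these sirtuins differ from that of Sirt1 was not tested. Sirt3, the main deacetylase of mitochondria, had 4.87, 4.89 and 5.12 in C26 pools, against 5.57, 5.57 and 5.66 in control pools, a difference of -0.64 (SE 0.09, adjusted p = 0.000872). The groups did not overlap for 5 of the 6, of which 3 were lower and 2 higher, beside 24.6% and 19.3% of all probe sets. The lower ones were Sirt3 and the other mitochondrial members Sirt4 and Sirt5, which had differences of -0.40 (SE 0.08, adjusted p = 0.00542) and -0.33 (SE 0.07, adjusted p = 0.00709). Sirt2 and Sirt7, whose C26 pools lay just above the control pools, had differences of 0.12 and 0.15, and Sirt6, which overlapped, had -0.09. Sirt3 fell short of the fold minimum when arrays were centred on their medians, at -0.58.

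**Figure D4:**
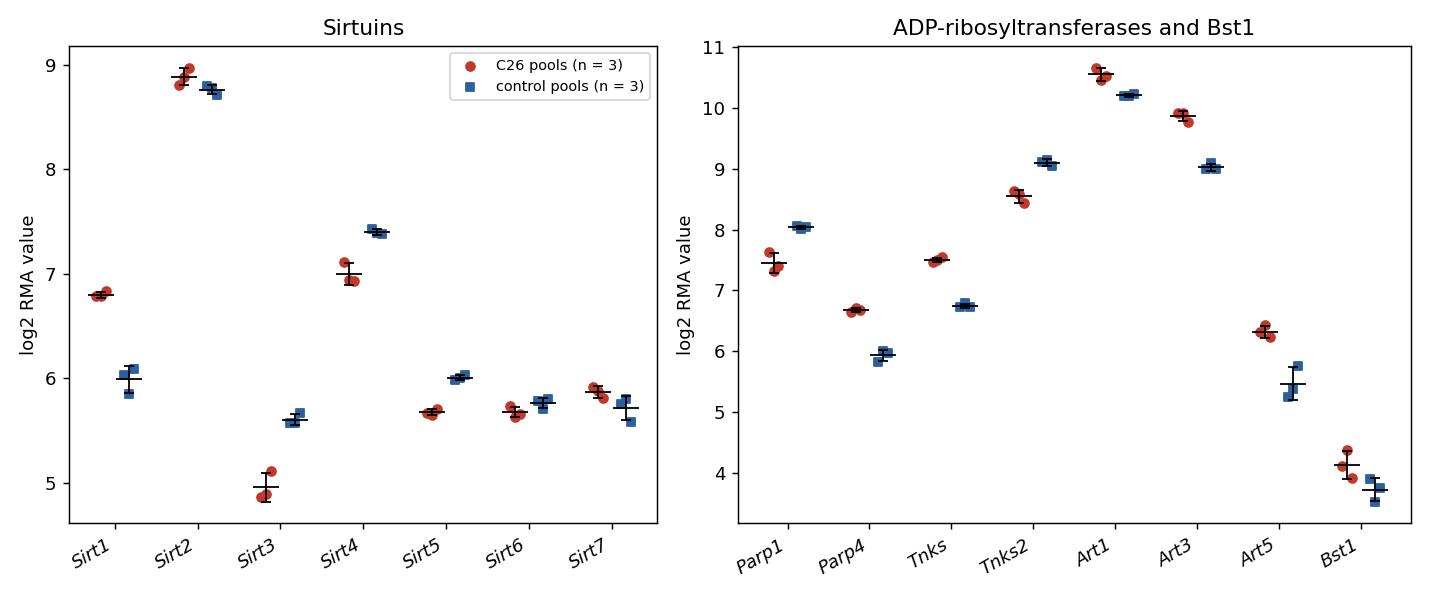
Log2 intensity (y axis) per pool (red circles C26, left; blue squares control, right) for the sirtuins and for selected ADP-ribosyltransferases and Bst1, with group mean and SD in black. All 3 C26 pools lie above the control pools for Sirt1, Tnks, Parp4, Art1, Art3 and Art5, and narrowly for Sirt2, Sirt7 and Bst1. They lie below the control pools for Sirt3, Sirt4, Sirt5, Parp1 and Tnks2, and Sirt6 overlaps.

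PARP enzymes transfer ADP-ribose from NAD to proteins. Of 15 measured, 2 rose, and 6 were lower by the adjusted p alone without passing the fold minimum. Of all probe sets 5.94% rose and 15.8% were lower by the adjusted p alone. The tankyrase gene Tnks had 7.48, 7.49 and 7.54 in C26 pools, against 6.73, 6.79 and 6.73 in control pools, a difference of 0.76 (SE 0.07, adjusted p = 0.000111). Parp4, which encodes the PARP of vault particles, had 6.64, 6.72 and 6.67 in C26 pools, against 5.83, 6.00 and 5.97 in control pools, a difference of 0.74 (SE 0.08, adjusted p = 0.000204). The groups were apart by 0.69 for Tnks and by 0.64 for Parp4. Parp1, the main PARP of the DNA damage response, had a difference of -0.58 (SE 0.09, adjusted p = 0.00189), just short of the fold minimum, and Tnks2, the second tankyrase, had -0.55 (SE 0.08, adjusted p = 0.00124). Both were called lower without C26 replicate 1 and after quantile or loess normalization, which gave 2 PARP genes lower, and Parp1 alone without control replicate 2 or 3.

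Of the 6 other NAD glycohydrolases and ADP-ribosyltransferases, 2 rose, beside 5.94% of all probe sets, and the median was 0.38. Art3 had 9.91, 9.92 and 9.77 in C26 pools, against 8.99, 9.09 and 8.995 in control pools, a difference of 0.84 (SE 0.08, adjusted p = 0.000111). Art5 had 6.31, 6.43 and 6.23 in C26 pools, against 5.25, 5.39 and 5.77 in control pools, a difference of 0.85 (SE 0.13, adjusted p = 0.00151). Both belong to the family of surface or secreted mono-ADP-ribosyltransferases, and neither overlapped between groups. Art1, the family member known from skeletal muscle, had 0.35 (SE 0.08, adjusted p = 0.0108). Bst1, the relative of Cd38, was not called (adjusted p = 0.0537). Its control mean lay under the background, its C26 mean lay 1.24-fold above the background, and the groups were apart by 0.004.

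The genes that carry reducing equivalents of cytosolic NADH into mitochondria, or spend them on lactate, were mostly lower. Of 10 measured, 4 fell and 6 were not called, 8 were lower by the adjusted p alone and the median was -0.56. Of all probe sets 4.95% fell and 15.8% were lower by the adjusted p alone. Gpd1, the cytosolic glycerol phosphate dehydrogenase, had 9.23, 8.64 and 8.68 in C26 pools, against 10.46, 10.46 and 10.40 in control pools, a difference of -1.59 (SE 0.15, adjusted p = 0.000106). Its mitochondrial partner Gpd2 had 8.52, 8.36 and 8.24 in C26 pools, against 9.41, 9.38 and 9.38 in control pools, a difference of -1.02 (SE 0.09, adjusted p = 7.41e-05). Both enzymes of the glycerol phosphate shuttle were thus lower in every C26 pool. Of the malate-aspartate shuttle, the carrier gene Slc25a11 had a difference of -0.72 (SE 0.07, adjusted p = 0.000169) and the cytosolic malate dehydrogenase gene Mdh1 -0.62 (SE 0.07, adjusted p = 0.000376). The lactate dehydrogenase genes Ldha and Ldhb had -0.31 (SE 0.08, adjusted p = 0.0133) and -0.55 (SE 0.07, adjusted p = 0.000724). Got1, the cytosolic aspartate aminotransferase, overlapped between groups, with a difference of 0.19. Mdh1 fell short of the fold minimum when arrays were centred on their medians, at -0.56.

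Whole muscle was measured, so for every gene here fewer cells of a type and less RNA per cell cannot be told apart. The 7 muscle fiber genes lay above background in both groups, and limma called 0 of them. At an unadjusted p under 0.05, 1 was higher and 1 lower (17.8% and 22.0% of all probe sets). These were Des at 0.29 (adjusted p = 0.0219 from limma) and Mb at -0.47 (adjusted p = 0.00196 from limma). The groups did not overlap for 5 of the 7, 1 higher and 4 lower, beside 19.3% and 24.6% of all probe sets. The summed level of the 7 was 15.05 to 15.12 in C26 pools and 15.13 to 15.17 in control pools (log2). Slow and oxidative fiber genes summed to 11.91 to 11.96 in C26 pools and 12.14 to 12.18 in control pools, with 0 of 5 called and 4 lower at an unadjusted p under 0.05 (22.0% of all probe sets). Macrophage genes rose in 5 of 8 cases (5.94% of all probe sets rose), with sums of 10.26 to 10.31 in C26 pools and 9.545 to 9.69 in control pools. Of the 3 not called, Adgre1 and Csf1r overlapped between groups, with differences of 0.002 and 0.015, and Lyz2 had 0.44 without overlap. Neutrophil genes rose in 5 of 6 cases, with sums of 7.755 to 7.993 in C26 pools and 6.339 to 6.546 in control pools, and S100a8, Cxcr2 and Retnlg lay under background in control pools. Fibroblast and tendon genes fell in 3 of 7 cases (11.5 to 11.68 in C26 pools, 12.3 to 12.44 in control pools), adipocyte genes in 3 of 6 (9.413 to 9.609 in C26 pools, 9.594 to 9.738 in control pools), and endothelial genes in 1 of 5 (9.705 to 9.837 in C26 pools, 9.909 to 10.04 in control pools). Of all probe sets 4.95% fell. The fibroblast and tendon genes that fell were Dpt (-0.79), Col1a1 (-2.61) and Tnmd (-2.73). Those not called were mixed. Pdgfra was higher without overlap, at 0.50 (adjusted p = 0.00135 from limma), Dcn overlapped, at 0.03, and Lum and Scx were lower, at -0.46 and -0.56. Of 5 lymphocyte genes 0 were called, 2 were lower at an unadjusted p under 0.05 and 2 lay above background. The markers moved with the same contrast as Nmrk2, Sirt1 and Nampt, and their part in those differences was not tested.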

How the data were processed

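Whole-transcript expression was measured on Affymetrix Mouse Gene 1.0 ST arrays in 3 C26 and 3 control pools, from RNA with integrity numbers of at least 8.0. The deposited log2 values were made by the authors with RMA and the Brainarray custom CDF, version 13, which corrects background, quantile-normalizes and gives 1 probe set per gene. They were used without further normalization. For the probe annotation, the genome build was not given in the sources used here. The number of arrays limits the precision.

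Gene names are those of the platform annotation. Of 21212 probe sets, 18782 carry 1 symbol that no other shares (18772 are in a RefSeq gene table), 2420 are unnamed here, 6 have several symbols and 4 share one. Cd38 and 2 of the 71 other NAD genes have no such symbol and were not analysed here. C26 and control pools entered a two-sided test by lmFit and eBayes of limma 3.58.1 (R 4.3.3), with 4.52 prior degrees of freedom and p-values adjusted by Benjamini-Hochberg, and tables were made in Python 3.11.15 with pandas 2.3.3. The methods' t-test is the parametric test named in the study's methods, run with equal variances. The members and all lists were chosen with earlier results of these data known. All measured members are named, up to 4 called genes of each list, and the 5 genes nearest to Nmrk2. Promoters came from RefSeq (GRCm38.p6). Protein sequences were not used here. Scripts were tested on simulated data. Alternatives were other tests, variance models, fold minimums, scalings, a filter on dim probe sets, a block for the replicate number, and omission of single arrays.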

Additional observations from a re-analysis of the deposited data

How the results depend on the processing

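The differences of Nmrk2 and Sirt1 kept their sign under the alternatives run. With no fold minimum 3041 probe sets were higher and 3344 lower, 3 and 2 of the 9 NAD genes, and 22 of the other NAD genes were lower. With at least 2-fold, 432 and 307 probe sets, 0 NAD genes higher, and 1 and 2 of the other NAD genes passed. A t-test with unequal variances took 760 higher and 621 lower, with 4 other NAD genes higher. Centring arrays on their medians made 2 of the 9 NAD genes higher (Nampt and Sirt1), and leaving out single arrays gave 1 to 2 higher. Over those omissions 1196 to 1391 probe sets were higher and 992 to 1155 lower, as were 6 to 8 and 6 to 9 of the other NAD genes. The other tests, the variance models and the dim filter leave a difference unchanged by construction. Only the scalings, the replicate block and the omissions could move it. Of 134 recomputed differences of the 9 genes, those unchanged ones included, 130 moved by less than the spread between pools. The other 4 were Naprt after quantile normalization (0.29), median centring (0.30) and loess (0.29), and Nmnat3 after median centring (0.08). Among the 14 called genes of the other lists 7 kept their call under all alternatives but the 2-fold minimum, namely Kyat1, Pnp, Parp4, Tnks, Art3, Gpd2 and Slc25a11, and none of the 14 changed sign. At 2-fold Ahcy, Gpd1 and Gpd2 were left. The t-test with unequal variances lost Kyat3, Sirt3, Art5, Ahcy, Mtr and Gpd1, the methods' t-test lost Kyat3 and Ahcy, and the cause was not tested. The replicate block gave 1235 higher and 1069 lower probe sets and ended only the call of Mtr among these genes. With this block the difference rests on replicates 1 and 3 alone, since control replicate 2 and C26 replicate 4 share no number. Deviations of same-numbered pools from their group means had r = -0.06 for both shared numbers. Those of differently numbered pools had r from -0.03 to 0.07. With so few shared numbers and pools, this cannot show whether the numbers pair the pools. Nmrk1 could not be fitted under the dim filter, and signal near background limits its value and those of 6 of the 9 de novo genes.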

Other observations

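The methyl groups that Nnmt puts on nicotinamide come from the methionine cycle, and nicotinamide products are also oxidized. Of 6 measured genes of these steps, 2 rose, beside 5.94% of all probe sets, and 4 were not called, with a median difference of 0.14. Mtr, the methionine synthase, had 7.13, 7.23 and 7.34 in C26 pools, against 6.62, 6.65 and 6.60 in control pools. The groups did not overlap, and the difference was 0.61 (SE 0.08, adjusted p = 0.000635 from limma). It missed the fold minimum without C26 replicate 4 (0.56), after quantile normalization (0.58), after cyclic loess (0.575) and with the replicate block (0.57), and it did not pass the t-test with unequal variances. Ahcy, which clears the by-product of methyl transfer, had 3.74, 4.50 and 4.02 in C26 pools, against 2.78, 2.44 and 3.61 in control pools. Its control mean of 2.94 lay under the background, and so did C26 replicate 1, while the C26 mean lay 1.19-fold above it. The fitted difference was 1.14 (SE 0.29, adjusted p = 0.0175 from limma). That call was lost without C26 replicate 3 (adjusted p = 0.066), C26 replicate 4 (adjusted p = 0.0532) or control replicate 1 (adjusted p = 0.0531), and the range over single omissions reached down to 0.00205.

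Damaged NADH is repaired by an epimerase (Naxe) and a dehydratase (Naxd), and Nudix enzymes hydrolyse the dinucleotides. Of the 4 genes measured limma and the methods' t-test each called 0. At an unadjusted p under 0.05, 1 was higher and 2 lower, beside 17.8% and 22.0% of all probe sets. Naxd had 6.67, 6.79 and 6.91 in C26 pools, against 6.42, 6.24 and 6.24 in control pools, a difference of 0.49 (SE 0.09, adjusted p = 0.00427 from limma), and Naxe had -0.17 (SE 0.07, adjusted p = 0.123 from limma). Nudt12, a Nudix gene, had -0.28 (SE 0.10, adjusted p = 0.072 from limma). The groups did not overlap for these 3 genes, 1 higher and 2 lower, beside 19.3% and 24.6% of all probe sets. The genes named here were picked after their values were seen.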
